A study of Mus musculus with 4 samples.

Results

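The RUNX factors Runx1, Runx2 and Runx3 and their shared partner Cbfb were followed through single-nucleus multiome data of mouse bone marrow hematopoietic stem and progenitor cells (HSPCs). The 4 genes were chosen by name among 32272 gene rows, and 114 of 174339 chromatin accessibility peaks were assigned to them because they lay within 50 kb of the gene interval in the feature table. The peaks found in this way for Runx1 and Runx2 did not reach the 3′ parts of those genes. The labels describe C57BL/6 males aged 8 weeks in a Lig group, whose second molars carried silk ligatures for 14 days, and in a Ctrl group without ligatures. Each group was 1 pool of 5 mice, and Lin-cKit+ cells were sorted before nuclei were taken. RNA and ATAC were measured in the same nuclei, which gave 4 samples, 1 for each group and assay. The 2 barcode suffixes of the pooled matrix were treated as library 1 and library 2, because no label joins a suffix to a group. Ligature and control were therefore not compared, and with 1 library of each kind no test between conditions was possible.

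RUNX proteins bind DNA through a Runt domain, and Cbfb binds no DNA itself but strengthens that contact and protects its RUNX partner from degradation. Runx1 is required for the emergence of blood stem cells and for megakaryocyte and lymphoid maturation, Runx2 is best known as the master regulator of osteoblasts and is also used by plasmacytoid dendritic cells, and Runx3 acts in cytotoxic T cells, natural killer cells and dendritic cells. Each RUNX gene is read from a distal promoter, P1, and a proximal promoter, P2, whereas Cbfb has a single promoter region.

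After the limits on nuclei, 5905 nuclei of library 1 and 7714 of library 2 remained, with 10294527 and 12537328 UMIs and 118239764 and 128699726 ATAC counts. The median nucleus held 636 detected genes in library 1 and 410 in library 2. Joint clustering of RNA and ATAC, from which the 4 genes and their peaks were left out, gave 19 clusters. From marker genes, 15 of them were named into 14 classes, each called "-like" here, and 4 kept their cluster number. The doublet caller Scrublet marked 3 nuclei, or 0.022%, too few for its calls to be used, and no doublets were removed. The 18 populations span stem cells (HSC), lymphoid-primed multipotent progenitors (MPP4/LMPP), early myeloid progenitors, granulocyte-monocyte progenitors (GMP), progenitors of neutrophils (NeuP), monocytes (cMoP), conventional and plasmacytoid dendritic cells (cDCP and pDCP), basophils (BaP), erythroid cells (EryP) and megakaryocytes (MkP), and pro-B, B and pro-NK/T cells. Clusters 0, 4, 6 and 9 were led by Nrg1 and Tnf, by Ephb2 and Ccnd1, by Mdga1 and Slc24a3, and by Ccnb1ip1 and Zc3h7a, in that order. The B-like class had the plasma cell marker Jchain and the antibody gene Igha among its leading genes, beside Ms4a1 and Bank1. Summed plasma cell markers were highest in it in both libraries, and the part of plasma cells in its values was not tested. RNA levels are given as CPM, the UMIs of a gene scaled to a total of 1000000 in each population and library, and since gene length is not taken into account they are compared between populations and not between genes. Kit, the receptor used in the sort, ranged in library 1 from 39.8 CPM in cMoP-like nuclei, with 2 UMIs, to 563 in HSC-like nuclei, and in library 2 from 39.3 to 379. The 2 libraries shared 72 barcode sequences among the kept nuclei. RNA free in the droplets was not measured, and its part in low levels was not tested.

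The promoter sequences are shown because the P1 and P2 promoters of the same gene differed in composition and, further on, in accessibility. The sequences are those of RefSeq on GRCm38.p6, upstream of the start and 5′ to 3′ on the gene strand, and bases that the annotations place in a first exon were not printed. Capitals mark matches on either strand to the RUNX motif TGTGGT. They also mark the GATA motif AGATAA and the ETS motif AGGAAG, on either strand. In the mm10 gene table Runx1 (ENSMUSG00000022952) spans chr16:92601466-92826149 on the minus strand, Runx2 (ENSMUSG00000039153) chr17:44495987-44814797 on the minus strand, Runx3 (ENSMUSG00000070691) chr4:135120652-135177990 and Cbfb (ENSMUSG00000031885) chr8:105170674-105217989, both on the plus strand. The promoter windows lie at chr16:92826150-92826324 and chr16:92697330-92697579 on the minus strand for Runx1, chr17:44814798-44814877 on the minus strand for Runx2, chr4:135120395-135120644 and chr4:135152295-135152495 on the plus strand for Runx3, and chr8:105170424-105170673 on the plus strand for Cbfb.
Runx1 P1: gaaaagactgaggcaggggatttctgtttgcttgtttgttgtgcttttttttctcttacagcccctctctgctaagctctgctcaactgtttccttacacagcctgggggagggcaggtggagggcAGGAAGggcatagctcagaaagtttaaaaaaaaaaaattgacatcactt
Runx1 P2: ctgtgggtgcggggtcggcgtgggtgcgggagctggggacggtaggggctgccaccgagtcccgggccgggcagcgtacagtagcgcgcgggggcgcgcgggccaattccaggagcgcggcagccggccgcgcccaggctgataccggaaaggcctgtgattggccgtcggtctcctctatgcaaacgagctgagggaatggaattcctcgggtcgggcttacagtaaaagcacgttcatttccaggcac
Runx2 P1: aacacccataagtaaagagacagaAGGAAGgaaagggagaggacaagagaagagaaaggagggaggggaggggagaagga
Runx3 P1: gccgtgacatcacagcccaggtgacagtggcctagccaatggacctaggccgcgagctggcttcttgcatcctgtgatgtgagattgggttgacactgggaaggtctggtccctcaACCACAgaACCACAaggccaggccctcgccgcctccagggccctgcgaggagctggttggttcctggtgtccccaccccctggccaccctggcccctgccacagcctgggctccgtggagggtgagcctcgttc
Runx3 P2: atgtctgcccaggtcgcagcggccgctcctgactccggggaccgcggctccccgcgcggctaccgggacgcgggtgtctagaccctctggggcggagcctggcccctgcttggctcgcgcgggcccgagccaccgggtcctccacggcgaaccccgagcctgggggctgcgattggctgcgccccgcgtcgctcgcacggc
Cbfb: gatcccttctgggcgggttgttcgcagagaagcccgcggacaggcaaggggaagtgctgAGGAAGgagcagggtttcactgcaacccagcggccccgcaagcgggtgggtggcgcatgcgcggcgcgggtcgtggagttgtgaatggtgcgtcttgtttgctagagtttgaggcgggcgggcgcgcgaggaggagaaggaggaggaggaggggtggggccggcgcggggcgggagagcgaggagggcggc

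Over the 250 bases before the RefSeq start, the proximal promoters of Runx1 and Runx3 held more CpG dinucleotides than the distal ones of the same gene. Runx2 P2 was not analysed here for its sequence. Runx1 P2 held 27 CpG dinucleotides at a GC content of 67.6%, against 2 at 45.6% in Runx1 P1. Runx3 P2 held 38 at 78.8%, against 8 at 65.2% in Runx3 P1. Runx2 P1 held 0 at 44.8%, and Cbfb held 25 at 69.2%. The median of all 32851 RefSeq promoters was 6 CpG at 52.4%. Runx3 P1 carried 2 RUNX motifs separated by a pair of bases, and Runx2 P1 carried 1, in the stretch that the annotation counts as exon. A RUNX motif was found in 14.0% of all promoters, a GATA motif in 9.99% and an ETS motif in 29.5%. The single ETS matches of Runx1 P1, Runx2 P1 and Cbfb are printed in capitals above.

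The RNA of Runx1 was detected in all 18 populations and was highest in BaP-like nuclei. It reached 3567 CPM there in library 1 (403 UMIs, exact Poisson 95% interval 3227 to 3932) and 2159 in library 2 (221 UMIs, 1883 to 2463), which was 2.68 and 2.89 times the level in the other nuclei. MkP-like nuclei came next with 2102 (1872 to 2353) and 1446 (1244 to 1671), 1.55 and 1.91 times the other nuclei. The BaP-like intervals lay above the MkP-like intervals in both libraries. Among the 10611 genes for which each library held 20 or more UMIs, 2.41% were 2-fold or more higher in BaP-like than in other nuclei in both libraries, and Runx1 was one of them. These intervals, like all those given here, cover counting error only, since nuclei of 1 library are not replicates.

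Below those populations Runx1 formed a graded series. In HSC-like nuclei it stood at 1598 CPM in library 1 and 882 in library 2, in MPP4/LMPP-like nuclei at 1654 and 1043, in cluster 6 at 1785 and 991, in cluster 4 at 1675 and 922, and in cluster 9 at 1239 and 874. Pro-B-like nuclei had 1397 and 1010, B-like nuclei 1206 and 661, and pro-NK/T-like nuclei 932 and 641. Early myeloid-like nuclei had 1108 and 628, cluster 0 had 1159.9 and 624, GMP-like nuclei 1017 and 466, cMoP-like nuclei 1035 and 708, and NeuP-like nuclei 595 and 515. The NeuP-like value was the lowest of library 1 and the GMP-like value the lowest of library 2. The remaining populations were EryP-like nuclei with 1108 and 669.8, cDCP-like nuclei with 867 and 579, and pDCP-like nuclei with 951 and 534. When the populations were ordered by the mean of both libraries, 1 of 17 neighbouring pairs was separated beyond the counting intervals in both libraries, the pair of BaP-like and MkP-like nuclei.

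Runx2 followed a different order. Cluster 4 held more of its UMIs, 470 and 170, but its level was highest in pDCP-like nuclei. It reached 2877 CPM in library 1 (118 UMIs in 52 nuclei, 2381 to 3445) and 1363 in library 2 (23 UMIs in 29 nuclei, 864 to 2046), which was 9.81 and 9.28 times the level in the other nuclei, or 3.29 and 3.21 on the log2 scale. The pDCP-like intervals did not overlap those of any other population in either library. In pDCP-like nuclei 4.38% of the genes tested were 2-fold or more higher in both libraries, Runx2 included. The highest population stood 12.2 times above the median population for Runx2, compared with 3.14 times for Runx1, 3.38 for Runx3 and 1.58 for Cbfb. Runx1, Runx2 and Runx3 each passed 2-fold in both libraries in at least 1 population and Cbfb did not, and 33.4% of all genes tested did.

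The next Runx2 levels belonged to cDCP-like nuclei, with 941 CPM in library 1 and 397 in library 2, and to cluster 4, with 881 and 416. Cluster 4 was led by Ephb2 and Ccnd1 and had Irf8, a factor of dendritic and monocyte fate, among its leading genes. Its intervals, 803 to 965 and 356 to 483, lay above those of the MPP4/LMPP-like nuclei, 501 to 640 and 233 to 343, so that 2 of 17 neighbouring pairs were separated in both libraries. Runx2 was at 567 and 284 in MPP4/LMPP-like nuclei, 521 and 237 in HSC-like nuclei, 414 and 220.3 in cluster 6, and 424 and 128 in cluster 9. It was at 283 and 117 in BaP-like nuclei, 251 and 128 in pro-NK/T-like nuclei, 188 and 127 in GMP-like nuclei, 170.2 and 95.04 in cluster 0, 174 and 80.5 in early myeloid-like nuclei, and 185 and 58.5 in NeuP-like nuclei. It was at 138 and 49.8 in EryP-like nuclei, 104 and 39.5 in MkP-like nuclei, 59.7 and 118 in cMoP-like nuclei, and 64.1 and 72.6 in pro-B-like nuclei. B-like nuclei had 92.8 in library 1 and 0 UMIs in library 2, where 3 UMIs would give 86.2. At resolution 0.4 of the clustering the log2 ratio of the pDCP-like nuclei was 2.03. Markers of stroma and osteoblasts, the textbook site of Runx2, were not counted in pDCP-like nuclei, where all 7 listed genes had 0 UMIs in both libraries. The endothelial markers summed there to 219 and 593 CPM, the latter their highest level in library 2, with 3 of 5 genes at 0. The part of endothelial or stromal cells in the Runx2 level was not tested. The summed stromal level never passed 49.8 CPM in any population of library 1 or 31.9 in library 2. In library 2 of pDCP-like nuclei 3 UMIs would give 178 CPM, so stromal levels of that size could go uncounted there.

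Runx3 was the least counted member, with 438 UMIs in library 1 and 296 in library 2. It was highest in pro-NK/T-like nuclei, with 275 CPM in library 1 (23 UMIs, 174 to 412) and 165 in library 2 (9 UMIs, 75.4 to 313), which was 3.83 and 3.34 times the other nuclei. In these nuclei 5.11% of the genes tested were 2-fold or more higher in both libraries. MkP-like nuclei had 167 and 119, 2.30 and 2.42 times the other nuclei, and MPP4/LMPP-like nuclei had 126 and 114. No neighbouring pair in the order was separated in both libraries. Cluster 4 had 118 and 100.3, cluster 9 had 127 and 58.0, BaP-like nuclei had 106 and 58.6, and cluster 6 had 90.1 and 67.8. The cDCP-like level was 74.7 and 66.2, the EryP-like level 94.6 and 42.1, the HSC-like level 63.6 and 60.2, the cluster 0 level 68.7 and 36.0, and the GMP-like level 59.4 and 34.7. Early myeloid-like nuclei were low in both libraries, at 36.2 (23.6 to 53.0) and 21.0 (13.3 to 31.5). Pro-B-like nuclei had 32.5 in library 1, against 83.8 in the other nuclei, and 43.5 in library 2, close to the 50.8 of the other nuclei. NeuP-like nuclei had 51.3 and 11.7 and B-like nuclei had 18.6 and 28.7, from 1 to 5 UMIs each. No UMI was counted in library 2 in cMoP-like nuclei, where library 1 gave 39.8, or in pDCP-like nuclei, where library 1 gave 73.1, and 3 UMIs there would give 59.0 and 178.

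Cbfb varied less across the populations than the RUNX genes, with 2.49 times between its highest and its lowest mean. The highest mean was in cDCP-like nuclei, at 374 CPM in library 1 (25 UMIs, 242 to 551) and 199 in library 2 (12 UMIs, 103 to 347), and the lowest in NeuP-like nuclei, at 113 (56.4 to 202) and 117 (71.5 to 181). No neighbouring pair was separated in both libraries. Cbfb in cDCP-like nuclei was 1.58 and 1.56 times the other nuclei and did not reach 2-fold, which 4.59% of the genes tested did there. Over all 18 populations the level ran from 113 to 374 in library 1 and from 57.5, with 2 UMIs in B-like nuclei, to 199 in library 2. The stem and multipotent populations had 203 and 159 in HSC-like nuclei and 212 and 169.8 in MPP4/LMPP-like nuclei. Pro-NK/T-like nuclei had 347 and 109.9, cluster 4 had 294 and 152, pro-B-like nuclei had 278 and 142, BaP-like nuclei had 265 and 107, and MkP-like nuclei had 201 and 119. Cbfb was thus counted in all 18 populations of both libraries. Across the 18 populations the Pearson correlation of Cbfb on the log2 scale was 0.28 in library 1 and 0.18 in library 2 with Runx1, and 0.07 and 0.76 with Runx2. Populations of few nuclei share their low counts in such a correlation, and no p was given.

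**Figure D1:**
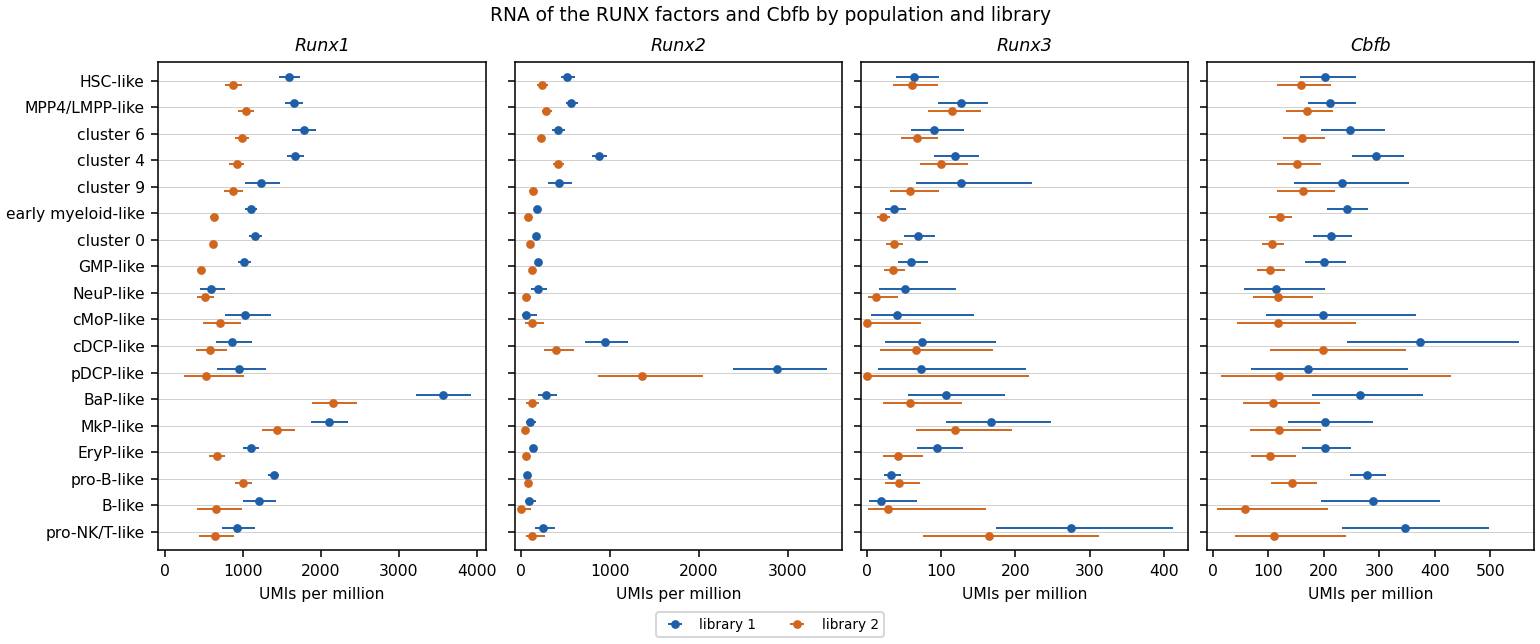
CPM of Runx1, Runx2, Runx3 and Cbfb (horizontal axes, linear, one scale per gene) in the 18 populations (rows), with library 1 in blue and library 2 in orange and bars for exact Poisson 95% intervals. Runx1 stands out in BaP-like nuclei at 3567 and 2159, Runx2 in pDCP-like nuclei at 2877 and 1363, Runx3 is highest with wide bars in pro-NK/T-like nuclei at 275 and 165, and Cbfb stays between 57.5 and 374.

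The pro-B-like class joined a pair of clusters, cluster 3 with Cplx2 and Ebf1 and cluster 11 with Cacna1e and Rag1 among their leading genes. Runx1 was similar in both, at 1381 and 995 CPM in cluster 3 and 1493 and 1096 in cluster 11, with overlapping intervals. Runx2 was low in both, at 65.5 and 78.9 in cluster 3 and 55.3 and 37.8 in cluster 11. Runx3 was at 33.3 and 30.9 in cluster 3. In cluster 11 it was at 27.6 from 4 UMIs and at 113 from 6 UMIs (41.6 to 247).

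The genes whose levels most resembled each member over the 18 populations were taken by the smaller of the within-library Pearson correlations of log2(CPM + 1) among the 4108 genes for which each library held 200 or more UMIs. For Runx1 these were Angpt1, the ligand of the Tie2 receptor, at 0.73 and 0.72 in libraries 1 and 2, Gse1 at 0.70 and 0.70, Hdac7, a histone deacetylase, at 0.68 and 0.64, Cdk6, a kinase of the G1 phase, at 0.65 and 0.62, and Fut8, a fucosyltransferase, at 0.69 and 0.62. For Runx2 they were Fmnl2, a formin that elongates actin filaments, at 0.63 and 0.92, Iqgap2 at 0.63 and 0.86, Hnrnpl at 0.63 and 0.63, Rab2a at 0.70 and 0.63, and Ephb2 at 0.68 and 0.62. For Runx3 they were Trp53bp1 at 0.68 and 0.84, Ddrgk1 at 0.67 and 0.79, Senp6 at 0.66 and 0.85, Senp5 at 0.69 and 0.65, and Zfp521 at 0.63 and 0.69. The list for Runx3 holds a pair of SUMO proteases, Senp5 and Senp6, and a zinc finger factor of progenitors, Zfp521. For Cbfb they were CAAA01118383.1 at 0.68 and 0.77, Spast at 0.61 and 0.71, Fnbp4 at 0.60 and 0.73, Nup153 at 0.62 and 0.59, and Nfkb1 at 0.56 and 0.69. Between the 2 libraries the profile of Cbfb over the populations correlated at only 0.12, against 0.49 for Runx3, 0.72 for Runx2 and 0.93 for Runx1. The values of the listed genes describe the ranking, and neither library nor population was independent of it.

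Partners and cofactors of RUNX proteins, factors that share enhancers with Runx1, and genes listed as RUNX targets were then read in the population that led for each member. Only genes with 20 or more UMIs in each library were read, which kept 15 of 16 partners and 17 of 24 targets. The targets left out were Cd4, Cd8a, Zbtb7b, Tbx21, Gzmb, Prf1 and Bcl11b. These were therefore not read in pro-NK/T-like nuclei either. In BaP-like nuclei none of 15 partners and cofactors was 2-fold higher or lower in both libraries, and the list medians were -0.09 and 0.02 on the log2 scale, compared with -0.16 and -0.13 for all genes. Of 8 enhancer-sharing factors, Gata2, a zinc finger factor of stem cells and basophils and itself one of the markers that named the class, was higher, at 814 and 498 CPM against 42.9 and 27.9 in other nuclei. Tal1, the bHLH partner of that complex, had 124 in library 1 from 14 UMIs and 39.1 in library 2 from 4 UMIs, against 23.8 and 20.8. Of 17 targets, 1 was higher and 6 were lower, when 2.41% of all genes were higher and 10.9% lower. The higher one was Itga2b, the integrin CD41, with 212 and 147 against 25.2 and 19.6. The smallest ratios were those of the lymphoid genes Ebf1, with 70.8 and 9.77 against 1741 and 318, Il7r, with 1 and 0 UMIs, and Rag1, with 0 UMIs in both libraries.

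In pDCP-like nuclei 2 of 17 targets were higher, against 4.38% of all genes, both of them markers that named the class. Tcf4, the E protein that specifies plasmacytoid dendritic cells, had 6289 and 3201 CPM against 571 and 331, and Ccr9, a chemokine receptor, had 12 and 3 UMIs, or 293 and 178 CPM, against 4.64 and 3.59. Whether RUNX proteins act on either gene in these nuclei was not tested. Il7r, the interleukin 7 receptor and next by ratio, had 5 and 1 UMIs. No partner or enhancer-sharing factor was higher, and 9 targets, 3 partners and 2 enhancer-sharing factors were lower, when 31.6% of all genes were lower at this depth. Among the smallest ratios, Hdac3 and Itga2b had 0 UMIs in both libraries, and Erg had 1 and 0. In pro-NK/T-like nuclei 2 of 17 targets were higher, against 5.11% of all genes, Itgal, the integrin LFA-1 chain, with 370.5 and 385 against 109 and 95.4, and Il7r, with 215 and 91.6 against 64.7 and 25.3. Tle4, a Groucho corepressor that binds RUNX proteins, came next, with 430.2 and 219.7 against 220.4 and 110.3, below 2-fold in both libraries. There 3 targets, 3 enhancer-sharing factors and 1 partner were lower, against 15% of all genes, and Gfi1 and Cebpa had 0 UMIs while Tal1 had 1 and 0. In cDCP-like nuclei 2 of 15 partners were higher, against 4.59% of all genes, the corepressor Cbfa2t3 with 897 and 695 against 289.6 and 178, and the kinase Hipk2 with 508 and 397 against 167 and 117. Cebpa, the myeloid factor next by ratio, had 2 and 1 UMIs. There 8 targets, 2 enhancer-sharing factors and 1 partner were lower, against 19.1% of all genes. Gata2 and Itga2b had 0 UMIs in both libraries, and Erg had 0 and 1.

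Each locus was next read in the ATAC data of the same nuclei, as CPM of all peak counts. The windows held 41 peaks for Runx1, 34 for Runx2, 28 for Runx3 and 11 for Cbfb. Of these, 29, 28, 11 and 3 lay inside the gene, in that order. The peaks ran from chr16:92648817 to 92874622 for Runx1 and from chr17:44685210 to 44859211 for Runx2, so the 3′ part of both genes was not read. Peaks at the starts of other genes were not set apart in the sums. The populations named as highest and lowest at a locus or promoter are so by the mean of both libraries. Summed over its window, Runx1 accessibility differed little between populations, from 224 and 228 in B-like nuclei to 349 and 365 in pro-NK/T-like nuclei, and BaP-like nuclei, with the highest RNA, had 291 and 283. Runx2 ran from 125 and 97.6 in B-like nuclei to 200.5 and 199 in GMP-like nuclei, and pDCP-like nuclei had 143 and 183. The highest population was thus 1.58 times the lowest for Runx1 and 1.79 times for Runx2, whereas Runx1 RNA spanned 5.16 times. No such span is given for Runx2 RNA, whose lowest population had 0 UMIs in library 2. Runx3 ranged most, from 156 and 173 in NeuP-like nuclei to 345 and 404 in pDCP-like nuclei, with 367 and 348 in pro-NK/T-like nuclei and 341 and 346 in MPP4/LMPP-like nuclei. Cbfb ran by that mean from 84.8 and 71.9 in pDCP-like nuclei to 97.1 and 121 in pro-NK/T-like nuclei, with 111 in library 1 of B-like nuclei.

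The promoters of Runx1 did not follow its RNA. P1 was most accessible in pro-NK/T-like nuclei, at 50.6 and 62.4 CPM, and in NeuP-like nuclei, at 62.4 and 50.2, the population with the least Runx1 RNA by the mean of both libraries. Promoters of all genes held 60.5% and 59.2% of ATAC counts in pro-NK/T-like nuclei and 61.0% and 57.1% in NeuP-like nuclei. In cluster 0 they held 48.8% and 48.3%. The part of this share in the promoter levels given here was not tested. In BaP-like nuclei P1 had 29.1 and 31.0 and P2 had 14.6 and 16.3. By the mean of both libraries cluster 9 was lowest, at 14.0 and 22.9, and B-like nuclei came next below the leading pair, at 40.6 and 50.4. By the same mean P2 was highest in cMoP-like nuclei, at 46.6 and 27.4, and lowest in pro-NK/T-like nuclei, at 17.1 and 7.34, although NeuP-like nuclei were highest in library 2, at 33.1, and MPP4/LMPP-like and B-like nuclei lowest in libraries 1 and 2, at 9.82 and 4.72. The share of promoter counts that fell at P1 was 74.8% and 89.5% in pro-NK/T-like nuclei, 74.0% and 68.6% in MPP4/LMPP-like nuclei, 66.7% and 65.5% in BaP-like nuclei and 63.0% and 61.4% in HSC-like nuclei. It was 46.2% and 44.6% in GMP-like nuclei, 45.3% and 41.2% in early myeloid-like nuclei and 36.7% and 42.2% in cluster 0. The stem, lymphoid-primed and basophil populations therefore carried more of their Runx1 promoter counts at P1 than the GMP-like, early myeloid-like and cluster 0 nuclei in both libraries, while the NeuP-like share was 69.9% and 60.3%.

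Runx3 P1, the promoter with the tandem RUNX motifs, differed 7.32 times between its highest and lowest population by the mean of both libraries. It was at 79.5 and 74.3 CPM in pro-NK/T-like nuclei, 69.1 and 54.9 in MkP-like nuclei, 57.5 and 42.9 in HSC-like nuclei, 55.9 and 54.5 in pDCP-like nuclei, 54.6 and 49.7 in BaP-like nuclei, 55.0 and 46.4 in MPP4/LMPP-like nuclei and 50.5 and 39.1 in pro-B-like nuclei. It fell to 7.80 and 14.7 in NeuP-like nuclei and 6.05 and 14.9 in cMoP-like nuclei. By the mean of both libraries P1 and RNA were each highest in pro-NK/T-like and then MkP-like nuclei, whereas pro-B-like nuclei ranked 13 of the 18 for RNA, at 32.5 and 43.5. Over the 18 populations the Pearson correlation with Runx3 RNA was 0.67 and 0.38 for P1, -0.13 and -0.18 for P2, and 0.56 and -0.00 for the whole locus, where populations of few nuclei share their low counts. Runx3 P2 differed 1.75 times by that mean, from 16.7 and 18.7 in pro-B-like nuclei to 27.99 and 34.1 in cDCP-like nuclei. Runx2 P1 was weak everywhere and differed 11.2 times by the mean, from 0.867 and 1.36 in NeuP-like nuclei, on 2 and 5 counts, to 13.4 and 11.6 in HSC-like nuclei, with 0 counts in library 2 of cMoP-like nuclei and 8.28 and 7.43 in pDCP-like nuclei from 8 and 3 counts. Runx2 P2 had 20.7 and 22.3 in pDCP-like nuclei and 27.3 and 25.2 in cDCP-like nuclei, so neither promoter showed at this depth a difference of the size seen in the RNA. With Runx2 RNA the same correlation was 0.45 and -0.01 for P1, 0.21 and 0.75 for P2, and -0.13 and 0.76 for the whole locus. With Runx1 RNA it was -0.41 and -0.15 for P1, -0.53 and 0.02 for P2, and -0.37 and -0.22 for the locus. The limit given for Runx3 holds for these values too. The Cbfb promoter was open throughout, by the mean from 51.6 and 49.8 in cluster 6 to 85.4 and 70.3 in NeuP-like nuclei.

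**Figure D2:**
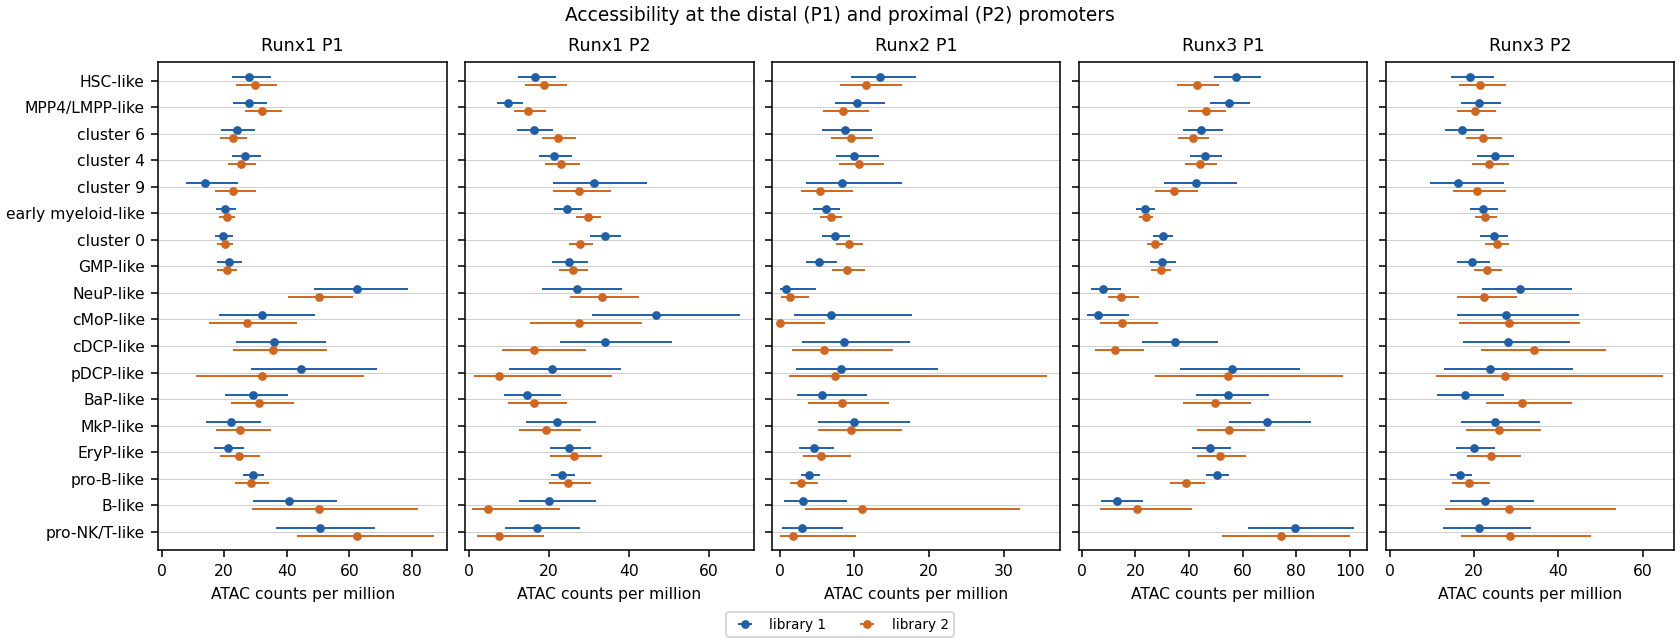
ATAC CPM (horizontal axes, linear, one scale per panel) at Runx1 P1 and P2, Runx2 P1, and Runx3 P1 and P2 in the 18 populations (rows), library 1 in blue and library 2 in orange, with 95% intervals on pairs of counts. Runx3 P1 runs from 6.05 and 14.9 in cMoP-like to 79.5 and 74.3 in pro-NK/T-like nuclei, while Runx3 P2 stays between 16.1 and 34.1, and Runx1 P1 is highest in NeuP-like and pro-NK/T-like nuclei.

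Single peaks were read next, where fewer counts and no averaging over a window allow larger ratios than in the sums. A peak 2-fold or more higher in both libraries in at least 1 population was found for 12 of 41 Runx1 peaks, 4 of the 31 Runx2 peaks that had enough counts, 11 of 28 Runx3 peaks and 0 of 11 Cbfb peaks, when 26.7% of all peaks with at least 100 counts in each library met this rule. The Runx1 share was close to that background, the Runx2 and Cbfb shares were below it, and the Runx3 share was above it. Within a locus, peaks are named by the ratio in the library where it is smaller. These ratios were taken on CPM with 1 added, which understates the change of weak peaks. The distances that follow run from the P1 start along the gene, and negative values lie upstream.

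Pro-NK/T-like nuclei accounted for 6 of the 28 Runx3 peaks as higher, when 2.82% of all peaks were higher in these nuclei, and for 2 as lower, against 20.9%. By the smaller ratio the leading ones lay at -11.9 kb, -22.1 kb and -17.7 kb, followed by 15.9 kb and -40.3 kb. The peak at -17.7 kb had 19.4 and 10.1 CPM in pro-NK/T-like nuclei, from 33 and 11 counts, and held 5 RUNX motifs. The peak at -22.1 kb was 1.41 and 1.39 higher on the log2 scale, from 34 and 24 counts, and the peak at -11.9 kb was 1.54 and 2.66 higher, from 11 and 16 counts. The peak at 72.4 kb, past the 3′ end of the gene and among the 3 Runx3 peaks with most counts, was lower in pro-NK/T-like nuclei, by -2.59 and -1.72 on the log2 scale from 6 and 8 counts. The populations with the next most higher peaks, picked from all 18 by that count, were MPP4/LMPP-like and pro-B-like nuclei. The former were higher at 3 of 28, against 1.81% of all peaks, and the latter at 3 of 28, against 5.02%. The peaks at -40.3 kb and 15.9 kb were chosen after their values were seen. The peak at -40.3 kb had 50.5 and 54.4 in MPP4/LMPP-like nuclei and 71.2 and 48.6 in pro-NK/T-like nuclei, and 5.20 and 9.50 in NeuP-like nuclei. The peak at 15.9 kb, between P1 and P2, had 18.9 and 15.97 in pro-B-like nuclei, 2.45 and 2.54 above the other nuclei on the log2 scale. Runx3 RNA in the pro-B-like class, at 32.5 and 43.5 CPM, was not above that of the other nuclei.

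In BaP-like nuclei 1 of 41 was higher, against 2.1% of all peaks, and 1 was lower, against 5.53%. The higher peak lay at 61.2 kb, in the intron between P1 and P2, with 19.8 and 14.3 CPM in BaP-like nuclei from 49 and 36 counts, 8.85 and 10.6 in EryP-like nuclei and 0.683 and 1.06 in pro-B-like nuclei, and it held a RUNX, a GATA and an ETS motif. The next by the smaller ratio, at 101.5 kb and 117.2 kb, were 1.23 and 0.98 and 0.64 and 0.87 higher on the log2 scale in BaP-like nuclei. EryP-like nuclei were higher at 4 of 41, against 2.88% of all peaks. The peak at 117.2 kb reached 16.6 and 18.6 there, 8.32 and 6.27 in MkP-like nuclei and 0 in both libraries of pro-NK/T-like nuclei.

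Other Runx1 peaks were singled out after their values were seen. The peak at 3.9 kb, with 5 RUNX motifs, had 55.3 and 45.0 CPM in MkP-like nuclei, 44.4 and 43.5 in EryP-like nuclei, 34.0 and 33.4 in cDCP-like nuclei and 26.8 and 25.4 in HSC-like nuclei, compared with 7.96 and 6.27 in GMP-like nuclei. The peak at 7.2 kb, with 5 ETS and 2 RUNX motifs, had 51.2 and 53.2 in pro-NK/T-like nuclei and no more than 16.3 in either library in any other population. Both lie downstream of P1 inside the gene. The peak at 24.4 kb, among the 3 with most counts, lies in the intron where an enhancer active in emerging blood stem cells is known from the literature. It had 37.5 and 41.6 in MkP-like nuclei, 38.2 and 37.3 in EryP-like nuclei and 36.9 and 33.8 in HSC-like nuclei, against 15.5 and 14.9 in pDCP-like nuclei and 18.1 and 7.47 in cMoP-like nuclei.

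**Figure D3:**
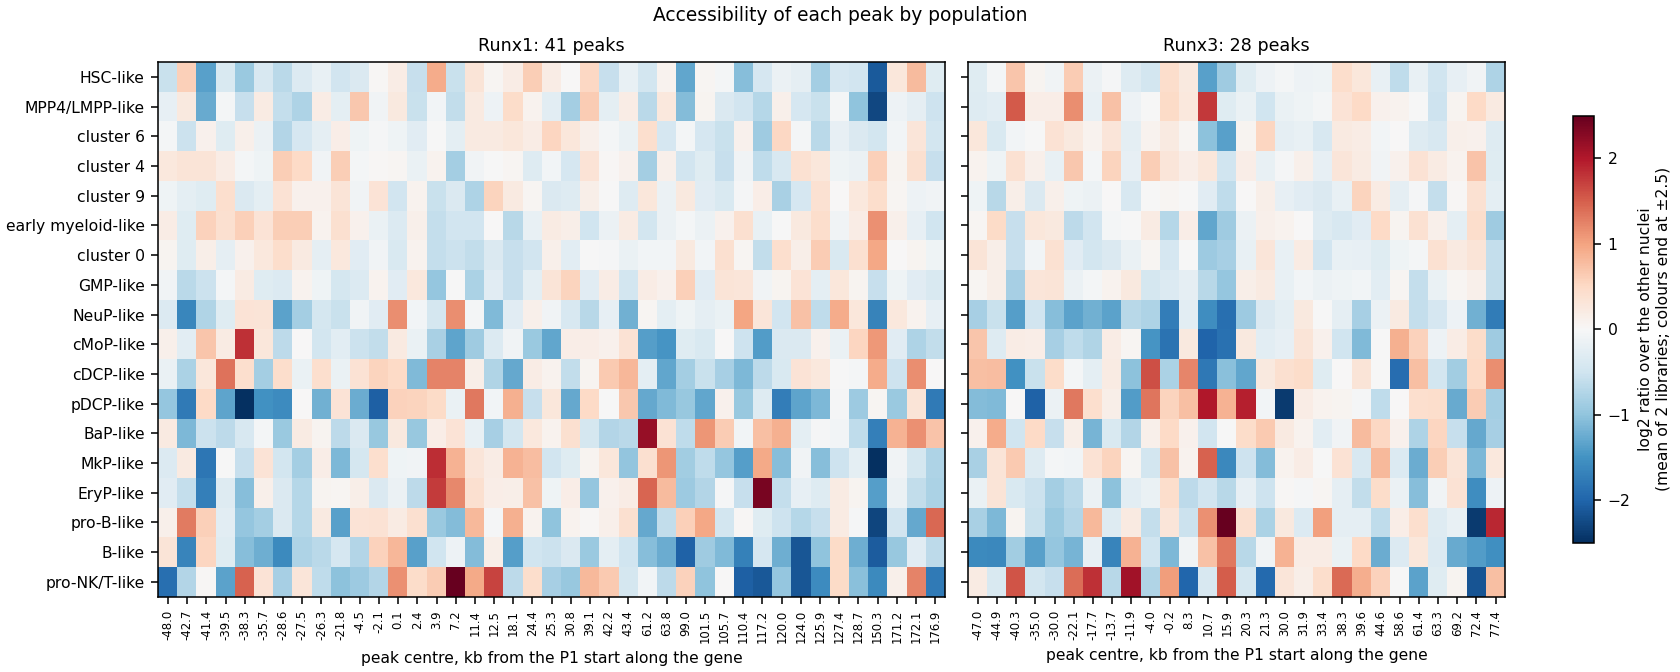
Log2 ratio of each Runx1 peak (left, 41 columns) and Runx3 peak (right, 28 columns) in each population over the other nuclei, as the mean of both libraries (red higher, blue lower), with columns ordered by distance from the P1 start in kb. In Runx1 the 7.2 kb peak is red in pro-NK/T-like nuclei, the 61.2 kb peak in BaP-like and EryP-like nuclei, the 117.2 kb peak in EryP-like nuclei and the 3.9 kb peak in MkP-like, EryP-like and cDCP-like nuclei, and in Runx3 the -17.7 kb peak is red in pro-NK/T-like nuclei and the 15.9 kb peak in pro-B-like nuclei.

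A stretch of 240 bases from each of these peaks is shown, the one with most motif matches, so that the letters of the peaks that lead in different lines can be set side by side. They were read from the GRCm38.p6 genome outside all annotated exons and are written 5′ to 3′ on the gene strand, minus for Runx1 and plus for Runx3, with the same capitals as above. The Runx1 windows lie at chr16:92822131-92822370, chr16:92818976-92819215, chr16:92801666-92801905, chr16:92764860-92765099 and chr16:92709067-92709306. The Runx3 windows lie at chr4:135080079-135080318, chr4:135102686-135102925 and chr4:135136590-135136829.
Runx1 3.9 kb, MkP-like and EryP-like: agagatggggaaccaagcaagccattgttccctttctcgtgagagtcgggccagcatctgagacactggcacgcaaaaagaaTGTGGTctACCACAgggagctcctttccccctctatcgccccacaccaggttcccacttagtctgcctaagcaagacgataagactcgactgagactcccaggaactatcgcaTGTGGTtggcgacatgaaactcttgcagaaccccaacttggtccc
Runx1 7.2 kb, pro-NK/T-like: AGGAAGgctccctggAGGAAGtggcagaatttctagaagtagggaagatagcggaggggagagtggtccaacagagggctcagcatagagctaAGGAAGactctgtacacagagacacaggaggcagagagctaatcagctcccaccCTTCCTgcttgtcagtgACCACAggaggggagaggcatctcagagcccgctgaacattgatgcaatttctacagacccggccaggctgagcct
Runx1 24.4 kb, among the 3 with most counts: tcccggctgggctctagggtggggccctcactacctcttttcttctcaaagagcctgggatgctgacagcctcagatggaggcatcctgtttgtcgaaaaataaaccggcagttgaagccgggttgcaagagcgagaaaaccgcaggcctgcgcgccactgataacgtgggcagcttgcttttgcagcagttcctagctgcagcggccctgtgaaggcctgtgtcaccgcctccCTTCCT
Runx1 61.2 kb, BaP-like: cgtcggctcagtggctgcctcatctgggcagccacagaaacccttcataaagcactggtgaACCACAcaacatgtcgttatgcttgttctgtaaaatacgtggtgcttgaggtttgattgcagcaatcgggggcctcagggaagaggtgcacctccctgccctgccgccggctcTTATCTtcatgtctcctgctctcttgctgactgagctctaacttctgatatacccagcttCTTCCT
Runx1 117.2 kb, EryP-like: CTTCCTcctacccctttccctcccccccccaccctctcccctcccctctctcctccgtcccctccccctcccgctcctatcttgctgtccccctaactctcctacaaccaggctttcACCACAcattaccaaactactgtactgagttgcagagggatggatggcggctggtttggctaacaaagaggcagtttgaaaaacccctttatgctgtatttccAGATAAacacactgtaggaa
Runx3 -40.3 kb, pro-NK/T-like and MPP4/LMPP-like: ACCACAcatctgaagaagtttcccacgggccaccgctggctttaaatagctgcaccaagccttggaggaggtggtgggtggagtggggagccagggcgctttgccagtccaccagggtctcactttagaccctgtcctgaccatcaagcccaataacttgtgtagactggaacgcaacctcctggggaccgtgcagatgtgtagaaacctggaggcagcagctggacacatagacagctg
Runx3 -17.7 kb, pro-NK/T-like: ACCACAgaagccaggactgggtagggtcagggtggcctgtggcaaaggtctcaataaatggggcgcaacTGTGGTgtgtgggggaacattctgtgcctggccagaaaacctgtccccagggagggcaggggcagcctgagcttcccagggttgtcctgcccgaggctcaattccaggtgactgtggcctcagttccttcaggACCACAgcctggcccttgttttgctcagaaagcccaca
Runx3 15.9 kb, pro-B-like: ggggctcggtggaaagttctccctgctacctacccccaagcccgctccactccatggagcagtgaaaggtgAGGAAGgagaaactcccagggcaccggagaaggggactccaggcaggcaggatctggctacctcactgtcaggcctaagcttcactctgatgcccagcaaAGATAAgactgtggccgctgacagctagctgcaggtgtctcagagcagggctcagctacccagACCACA

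In the 3.9 kb window of Runx1 a TGTGGT and an ACCACA faced each other across a pair of bases, and the -17.7 kb window of Runx3 held 3 RUNX motifs. The 24.4 kb window held none of the RUNX letters, which says only that these letters were not in it.

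The Runx2 window did not reach the 3′ part of the gene. Within it no peak was higher in pDCP-like nuclei in both libraries, of 31 peaks with at least 100 counts in each library, when 3.74% of all peaks were. In these nuclei 5 Runx2 peaks were lower, when 24.1% of all peaks were. The largest by that rule were those at 124.2 kb, 0.89 and 1.05 higher on the log2 scale from 10 and 5 counts, at 1.9 kb, 1.38 and 0.75 higher from 8 and 2 counts, and at 117.4 kb, 0.58 and 0.53 higher from 4 and 2 counts. The pDCP-like nuclei had 965620 ATAC counts in library 1 and 403106 in library 2, so that the single Runx2 peaks named here rest on 2 to 10 counts in a library. The peak with most counts of the Runx2 window, at 37.5 kb, differed by -0.56 and 0.20 between pDCP-like and other nuclei. It held 7591 and 7779 of the 20530 and 23283 counts of the window, and so weighs heavily in the summed accessibility. No Cbfb peak was 2-fold higher in cDCP-like nuclei, against 3.64% of all peaks, and its promoter peak at -0.1 kb, with 5749 and 5767 counts, was 0.32 and 0.35 higher there.

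RUNX motifs were found in 23 of 41 Runx1 peaks, 16 of 34 Runx2 peaks, 19 of 28 Runx3 peaks and 6 of 11 Cbfb peaks, that is in 56.1%, 47.1%, 67.9% and 54.5%, and in 54.5% of all 174282 peaks with sequence. ETS motifs were in 38 of 41 Runx1 peaks and in 77.0% of all peaks. GATA motifs were in 13, 8, 8 and 0 peaks of the 4 loci and in 35.1% of all. Peaks had a median length of 869 bases, and the share of such short motifs depends on that length.

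The letters that RUNX proteins read were then followed over the whole accessible genome of each population. Among ATAC counts over 1 kb from any gene start, the share in peaks with TGTGGT or its reverse complement was 61.2% and 61.2% in pDCP-like nuclei, 61.2% and 60.7% in pro-NK/T-like nuclei and 60.6% and 60.2% in BaP-like nuclei, the populations that led for Runx2, Runx3 and Runx1 RNA. It was 60.2% and 59.9% in MPP4/LMPP-like nuclei, 60.1% and 59.9% in cDCP-like nuclei and 59.0% and 58.8% in HSC-like nuclei. MkP-like nuclei, next after the leading population for both Runx1 and Runx3 RNA, had 59.1% and 59.3%. That was below cluster 6, at 59.8% and 59.6%, and cluster 4, at 59.7% and 59.4%. The lowest shares were 57.4% and 57.4% in B-like nuclei and 57.5% and 57.5% in cMoP-like nuclei, and 57.2% of the distal peaks themselves held the motif. The longer TGTGGTTT, in 9.82% of distal peaks, took 12.9% and 12.4% of distal counts in pro-NK/T-like nuclei and 10.0% in both libraries of cMoP-like nuclei. For this motif MPP4/LMPP-like nuclei, at 11.8% and 11.7%, stood above BaP-like nuclei, at 11.6% and 11.5%. GATA letters had another order, highest in EryP-like nuclei at 40.0% and 39.7%, BaP-like nuclei at 39.4% and 39.1% and MkP-like nuclei at 38.1% and 37.7%. Over all peaks, promoters included, the RUNX share was 47.1% and 47.2% in pDCP-like nuclei and 42.1% and 42.3% in B-like nuclei, where 59.6% and 59.4% of counts lay at promoters compared with 51.4% and 50.8% in pDCP-like nuclei. In that count pro-NK/T-like nuclei were among the lowest, at 43.7% and 44.0%, with 60.5% and 59.2% of counts at promoters, and BaP-like nuclei, at 46.0% and 46.2%, lay below clusters 4 and 6. These shares are close to each other, and the spread between animals was not measured.

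**Figure D4:**
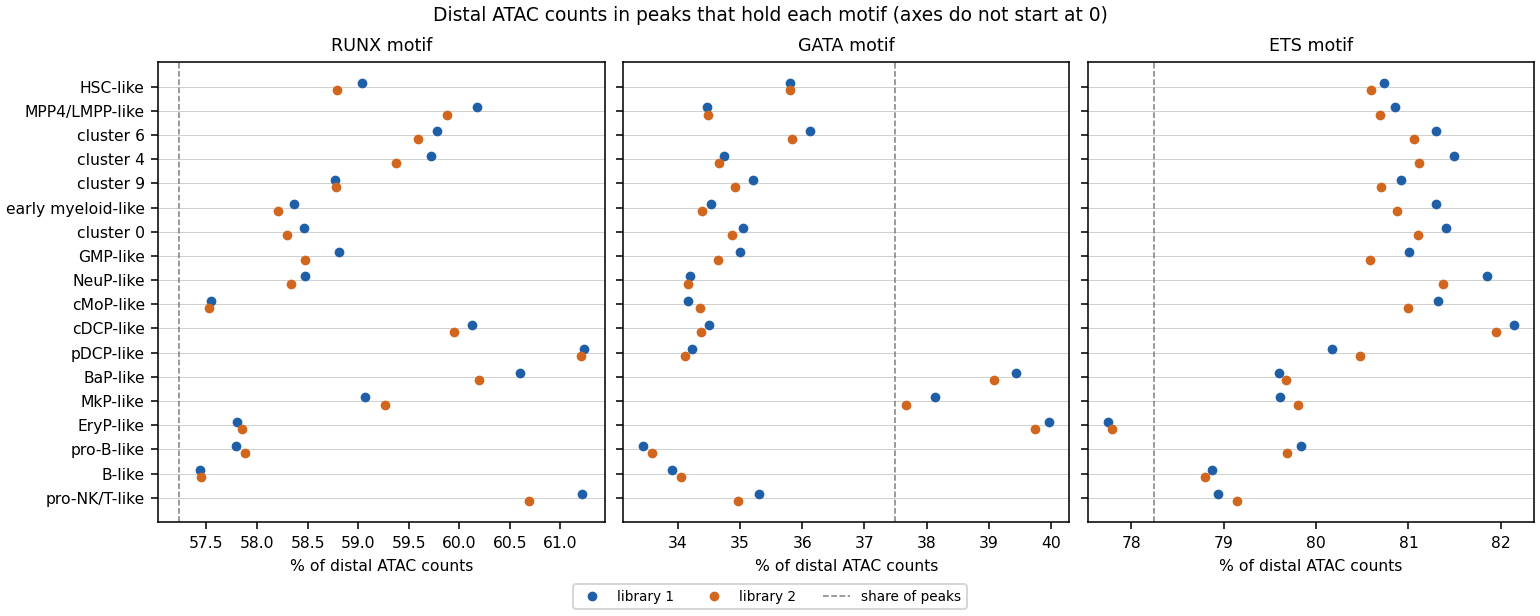
Share of ATAC counts over 1 kb from gene starts (horizontal axes in %, not starting at 0) that fell in peaks with a RUNX, GATA or ETS motif, for the 18 populations (rows), library 1 in blue and library 2 in orange, with a dashed line at the share of distal peaks that hold the motif. The RUNX share is highest in pDCP-like and pro-NK/T-like nuclei at 60.7% to 61.2% and lowest in B-like nuclei at 57.4%, and the GATA share is highest in EryP-like nuclei at 40.0% and 39.7%.

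Between the libraries the RNA of all 4 genes was lower in library 2, by different amounts. Over all nuclei Runx1 had 1374 CPM in library 1 and 772 in library 2, a log2 difference of -0.83 (95% interval -0.88 to -0.78). Runx2 had 311 and 150.4, a difference of -1.05 (-1.17 to -0.93), and Cbfb had 239 and 128, a difference of -0.89 (-1.02 to -0.77). Runx3 had 74.7 and 50.4, a difference of -0.57 (-0.78 to -0.35). The median over the 10611 genes tested was itself -0.35, and relative to it the differences were -0.48, -0.70, -0.55 and -0.22 for Runx1, Runx2, Cbfb and Runx3. Runx2 was past 2-fold and the other members were not, when 4.43% of genes were 2-fold or more lower in library 2 and 0.377% higher. These calls depended on the scaling. Genes at the ribosomal RNA locus, which were left out of the CPM denominator, held a larger share of all UMIs in library 2 than in library 1. With all UMIs as denominator Runx1, at -1.11, and Cbfb, at -1.18, were past 2-fold as well and 13.1% of genes were lower, and with the 20 most counted genes taken out of it Runx2 was at -0.70, no member passed, and 1.10% of genes were lower and 1.53% higher. In nuclei with at least 500 genes Runx2 was at -0.89. Of all genes, 11.4%, 4.401%, 8.67% and 29.0% had a lower ratio than Runx1, Runx2, Cbfb and Runx3.

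Within populations the sizes varied. Runx1 was lower in library 2 in 18 of 18 populations, Cbfb in 17, and Runx2 and Runx3 in 16. The median of all genes was also lower there, by -0.23 to -0.47 in the 9 populations that had 200 or more nuclei on both sides. Relative to that median, Runx1 and Cbfb were lower in 9 of these 9, Runx2 in 8 and Runx3 in 4, with Runx3 above it in HSC-like, MPP4/LMPP-like, cluster 4, cluster 6 and pro-B-like nuclei. In these populations the Runx1 difference ran from -0.47 in pro-B-like nuclei to -1.12 in GMP-like nuclei, and the interval lay below 0 in each. Runx2 was at -1.13 (-1.54 to -0.73) in HSC-like nuclei and -1.08 (-1.34 to -0.83) in cluster 4, and at 0.18 (-0.48 to 0.84) in pro-B-like nuclei. The Cbfb difference was smallest in MPP4/LMPP-like nuclei, at -0.32 (-0.77 to 0.13), and largest in cluster 0, at -1.01 (-1.36 to -0.65). Runx3 intervals included 0 in 6 of these populations.

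**Figure D5:**
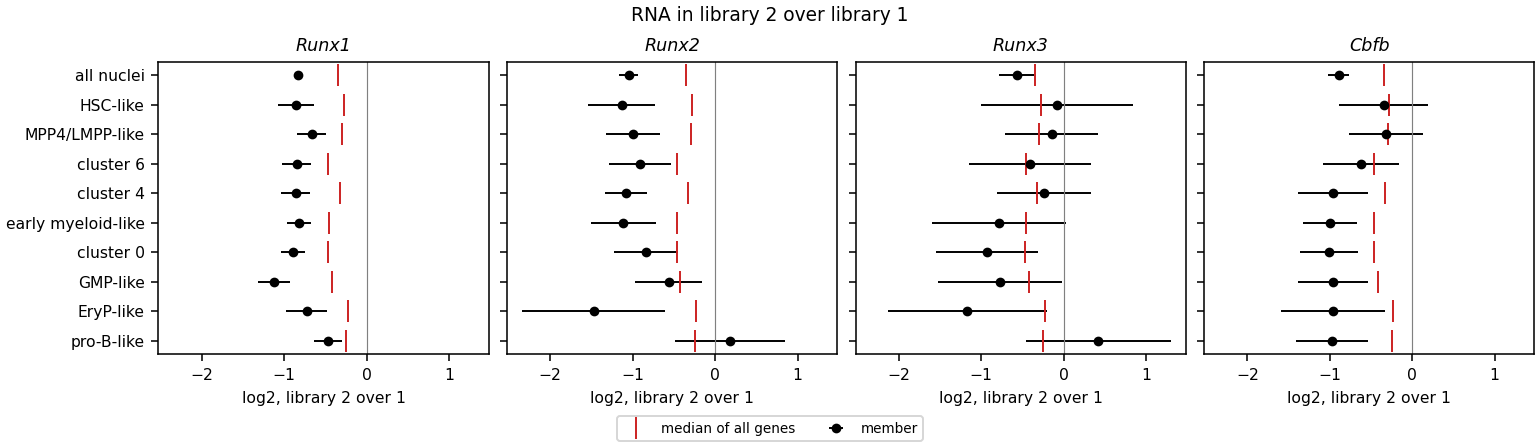
Log2 ratio of CPM in library 2 over library 1 (horizontal axis) for each member, over all nuclei and in the 9 populations that had 200 or more nuclei on both sides (rows), with 95% counting intervals, beside a red mark in each row at the median of all genes tested. Runx1 lies left of the red mark in every row, at -0.83 against -0.35 over all nuclei, while the Runx3 intervals include 0 in 6 of the 9 populations.

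The ATAC counts of the same loci did not share this difference. The Runx1 window had 282 CPM in library 1 and 283 in library 2, a log2 difference of 0.00 (-0.03 to 0.03), and the Runx2 window had 174 and 181, a difference of 0.06 (0.02 to 0.10), when the median of all peaks was 0.05. The Runx2 difference was 0.00498 under median-of-ratios scaling and -0.00315 in a window of 100 kb. The Runx3 window had 263 and 260.0, a difference of -0.02 (-0.05 to 0.02), and the Cbfb window 94.0 and 91.7, a difference of -0.04 (-0.09 to 0.02). None of the 114 peaks was 2-fold lower or higher in library 2, when 0.128% of all peaks were lower and 0 were higher. Fewer genes were detected per nucleus in library 2, with a median of 410 against 636, while the median UMIs were 1516.5 against 1641. The part of these in the RNA differences was not tested. Whether a difference belongs to the mice or to the library preparation cannot be told apart here.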

How the data were processed

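The study deposited 1 matrix of raw counts, UMIs per gene and ATAC counts per peak, which the authors made with Cell Ranger ARC 2.0.0 on mm10 (GRCm38) and which pools both barcode suffixes. Per the labels the authors also used Seurat 4.0.3 and Signac 1.3.0. Of 18961 barcodes, 13619 passed limits of 200 or more genes and of 1000 to 50000 counts in peaks. Nuclei were clustered in R 4.3.3 with Seurat 5.3.0 (30 principal components, LSI components 2 to 30, weighted nearest neighbours, resolution 0.8), without the 4 genes and their 114 peaks. Counts were summed per population and library in Python 3.11.15. CPM left Gm42418, Gm26917 and AY036118, at the ribosomal RNA locus, out of the denominator. Log2 ratios of a population over the other nuclei, for genes and single peaks, are on CPM + 1. The values given as times, the locus sums and the member differences between libraries are without the added 1. Intervals on levels are exact Poisson at 95%, for ATAC on pairs of counts, since 82.5% of nonzero peak entries were even. Those on differences between libraries are normal approximations on the log ratio of counts. All of them cover counting error only. Calls are 2-fold or more in both libraries, for genes with at least 20 UMIs and peaks with at least 100 counts in each library (20 counts between libraries). There were no replicates, so no p was computed.

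Named were the 4 members, the 5 genes most like each in both libraries, the 3 network genes with the largest and the 3 with the smallest ratio (mean of both libraries) in each leading population, the 3 peaks with most counts, the 3 with the largest ratio (in the library where it is smaller), and the promoters. The members and lists were chosen with earlier results of these data known. Lists of macrophage, plasma cell, endothelial and stromal markers reached at most 39.8, 1048, 382 and 49.8 CPM in library 1 and 59.0, 374, 593 and 31.9 in library 2, the plasma cell maxima both in B-like nuclei. The scripts were tested on simulated data. Alternatives changed denominators, clustering, nucleus limits, windows, motif and minimum counts.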

Additional observations from a re-analysis of the deposited data

How the results depend on the processing

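Of 188 values of 22 results under 20 other settings, 150 stayed within the counting interval, 37 moved beyond it and 1 reversed, and except where the setting itself is a change of scale the cause was not tested. Not every change of sign was counted as a reversal. The Runx1 locus difference between libraries kept its sign in 3 of 6 settings, with 0 counted as reversed. Between libraries, with all UMIs as denominator, Runx1, Runx2, Runx3 and Cbfb RNA differed by -1.11, -1.33, -0.85 and -1.18 on the log2 scale, and 13.1% of genes were lower and 0.123% higher. With the 20 most counted genes left out, and likewise with median-of-ratios scaling, they differed by -0.48, -0.70, -0.22 and -0.55, and the former gave 1.10% lower and 1.53% higher. At least 5 UMIs gave 1.13% higher, and no minimum 2.71% lower and 1.61% higher. With at least 500 genes per nucleus, Runx1 differed by -0.77 and Runx2 by -0.89. Locus ATAC differed under median-of-ratios scaling by -0.051 for Runx1, 0.00498 for Runx2, -0.069 for Runx3 and -0.090 for Cbfb. In a window of 10 kb it differed by 0.00714 for Runx2 and -0.059 for Runx3, and in one of 100 kb the Runx2 value reversed to -0.00315. Runx2 RNA in pDCP-like nuclei was 2.03 higher at resolution 0.4 and 2.72 with at least 500 genes, and its P1 share was 5% with promoter peaks within 500 bases. The RUNX motif ratio in pDCP-like nuclei was 0.045 at resolution 0.4, 0.032 with at least 500 genes, 0.11 for TGTGGTTT and 0.060 for peaks over 1 kb from a start. Cbfb locus ATAC in cDCP-like nuclei was 0.35 higher in a window of 10 kb, and Runx3 locus ATAC in pro-NK/T-like nuclei 0.30 in one of 100 kb and 0.24 with promoter counts as denominator. Clusters from RNA alone held no BaP-like or pDCP-like class, so 7 values could not be given. Low counts limit Runx3 and the populations of few nuclei, such as the pDCP-like, cMoP-like and cDCP-like ones. No paired comparison of the groups was possible, because each group had 1 library and no label joins a suffix to a group.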
